A study of Mus musculus with 16 samples.

Results

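The CXCL chemokines measured in cultured mouse astrocytes were *Cxcl1*, *Cxcl2*, *Cxcl5*, *Cxcl9*, *Cxcl10*, *Cxcl11*, *Cxcl12*, *Cxcl14* and *Cxcl16*. They were chosen by name: these 9 genes are all the genes with a *Cxcl* symbol among the 16707 genes of the deposited expression table. Astrocytes were isolated with ACSA-2 beads from the brains of wild-type (WT) C57BL/6J pups or *Nlrx1*-/- pups on the C57BL/6J background, which carry a knockout of the mitochondrial NOD-like receptor NLRX1 that is not limited to astrocytes. Each genotype was represented by 4 litters, and cells of each litter received vehicle or 500 ng/mL lipopolysaccharide (LPS) with 10 ng/mL interferon-γ (IFNγ) for 24 h, which gave 16 libraries of poly-A RNA read without strand. Pups were at postnatal day 6 by the labels, a point on which the sources used here differ, as they do on the vehicle (water in the labels). The part of *Nlrx1* that was deleted is not given in the sources used here, the cells were grown for about 10 days before treatment, and each litter carries a single genotype, so that litter and genotype cannot be separated except through the spread between litters. Replicate numbers name litters within a genotype. The p-values of responses and of the interaction measure the spread of the response between these litters. For the genotypes within a treatment, the main fit counts the wells of a litter as independent. Its p-values there do not measure the spread between litters alone.

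Chemokines are small secreted proteins that guide migrating leukocytes through G protein-coupled receptors. *Cxcl1*, *Cxcl2* and *Cxcl5* encode ligands of CXCR2, the main chemokine receptor of neutrophils, and their transcription is driven by NF-κB downstream of receptors such as the LPS receptor TLR4. *Cxcl9* and *Cxcl10* encode interferon-induced ligands of CXCR3, the receptor of activated T cells, and depend to different degrees on interferon signalling and NF-κB. *Cxcl11* belongs to the same interferon-induced group, but the annotations differ on whether the mouse gene encodes a protein. *Cxcl12*, whose receptors are CXCR4 and the scavenging receptor ACKR3, and *Cxcl14* are expressed in many resting tissues, and *Cxcl16* encodes a transmembrane ligand of CXCR6 that is released by the protease ADAM10.

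The genes of the first 2 groups lie in 2 clusters on mouse chromosome 5 (GRCm39, GENCODE M39). On the forward strand stand *Cxcl5* (chr5:90907186-90909483), *Cxcl1* (chr5:91039094-91040974) and *Cxcl2* (chr5:91051730-91053797), with 10755 bases between the last pair. On the reverse strand stand *Cxcl9* (chr5:92469206-92475945), *Cxcl10* (chr5:92494497-92496748) and *Cxcl11* (chr5:92507403-92513344), separated by 18551 and 10654 bases. The other three are single genes: *Cxcl12* (chr6:117144945-117158328, forward strand), *Cxcl16* (chr11:70344517-70352620, reverse strand) and *Cxcl14* (chr13:56436352-56444603, reverse strand). *Cxcl11* is annotated as a transcribed pseudogene by RefSeq and as protein-coding by GENCODE.

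Promoter windows from RefSeq (GRCm38.p6, from 250 bases before to 50 bases after the start) were available for 6 of the 9 genes. Letters of 3 kinds were searched on both strands: the interferon-stimulated response element core GAAANNGAAA, the γ-activated site TTCNNNGAA, and the κB consensus by name. Of 32851 windows of the same length, 3.44% held the first, 8.3% the second and 4.51% the third. The windows of *Cxcl9* and *Cxcl12* held none of these letters. The stretches upstream of the start that hold matches are given 5′ to 3′ along the gene, since they are what sets apart *Cxcl1* and *Cxcl2* (κB letters only) from *Cxcl10* (κB and interferon-response letters) and *Cxcl14* (both interferon kinds), with each match in capitals. They run from chr5:90891145-90891244 on the forward strand for *Cxcl1*, chr5:90903779-90903898 on the forward strand for *Cxcl2*, chr5:92348890-92349109 on the reverse strand for *Cxcl10* and chr13:56296552-56296751 on the reverse strand for *Cxcl14*, all in GRCm38.p6.
Cxcl1: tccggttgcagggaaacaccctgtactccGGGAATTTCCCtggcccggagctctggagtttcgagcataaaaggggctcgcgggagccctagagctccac
Cxcl2: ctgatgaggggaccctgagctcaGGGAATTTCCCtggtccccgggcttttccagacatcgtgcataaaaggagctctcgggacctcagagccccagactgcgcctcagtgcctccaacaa
Cxcl10: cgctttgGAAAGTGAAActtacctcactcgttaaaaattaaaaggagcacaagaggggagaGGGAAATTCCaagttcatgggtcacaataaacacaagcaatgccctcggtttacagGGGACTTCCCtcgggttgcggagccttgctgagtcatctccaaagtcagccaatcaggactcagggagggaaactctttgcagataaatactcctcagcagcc
Cxcl14: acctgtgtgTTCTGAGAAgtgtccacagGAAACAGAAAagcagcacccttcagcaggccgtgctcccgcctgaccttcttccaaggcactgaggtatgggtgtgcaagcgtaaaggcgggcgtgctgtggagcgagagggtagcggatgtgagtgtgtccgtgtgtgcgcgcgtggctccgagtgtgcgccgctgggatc
*Cxcl1* and *Cxcl2* carried the same κB letters, GGGAATTTCCC, which match on each strand, beginning 71 and 97 bases before the start. In *Cxcl10* the interferon-response letters began 213 bases and the κB letters 159 and 103 bases before the start. In *Cxcl14* the γ-activated letters began 191 bases and the interferon-response letters 172 bases before the start. A match describes letters and is not evidence of binding.

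The libraries held 27259420 to 43752903 reads assigned to transcripts (median 35554625). *Nlrx1* had 474 to 804 reads in each WT library and 76 to 312 in each *Nlrx1*-/- library, with no overlap, and was lower in the knockout by 2.19 on the log2 scale under LPS+IFNγ (SE 0.25, edgeR quasi-likelihood test, adjusted p = 0.00318). In vehicle the difference was -1.70 on the log2 scale (SE 0.24, edgeR adjusted p = 0.0538), so that it did not pass the 0.05 threshold there. Astrocyte markers (8 genes, *Gfap* and *Slc1a3* among them) summed to 4892 to 10229 CPM (counts scaled to a common library total), whereas 12 microglia and macrophage markers summed to 1.26 to 4.12 CPM, neutrophil markers to at most 0.379 CPM and T cell markers to at most 0.108 CPM. Other lineages were read more: oligodendrocyte lineage markers summed to 1402 to 3089 CPM, fibroblast and mural markers to 105 to 324 CPM and ependymal markers to 64.8 to 246 CPM. The number of genes that differed between the genotypes under LPS+IFNγ depended on single litters. Leaving out the libraries of *Nlrx1*-/- litter 3 moved it from 808 to 3333, of 16066 and 16298 tested. Without WT litter 2, 3 or 4, that number was 1 to 2, and without *Nlrx1*-/- litter 2 or 4 it was 13 and 4. Without litter 1 of WT or *Nlrx1*-/- it was 1397 and 220. The differences of CXCL chemokines between the genotypes are given with and without these litters where a call changed. A fit of the 8 stimulated libraries alone, with 1 per litter, called 0 of 14965 genes. No genotype call under LPS+IFNγ given here, that of *Nlrx1* included, passed in that fit.

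Compared per transcript length, in TPM (reads scaled for transcript length and library total), the order of the CXCL messages changed with treatment. In WT vehicle cells *Cxcl14* ranked first, with 16.4, 15.3, 11.5 and 15.5 TPM in litters 1 to 4. It was above *Cxcl10* (1.32 to 3.03 TPM), and every later neighbour in the order overlapped: *Cxcl10*, *Cxcl16*, *Cxcl12*, *Cxcl5*, then *Cxcl2*, *Cxcl1*, *Cxcl9* and *Cxcl11* at or near 0. *Cxcl14* made up 67.2% to 77.4% of the summed TPM of the 9 genes in WT vehicle libraries and 35.1% to 64.2% in *Nlrx1*-/- vehicle libraries.

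Under LPS+IFNγ *Cxcl10* ranked first in each genotype, at 2802 ± 663 TPM in WT and 3421 ± 937 TPM in *Nlrx1*-/- astrocytes (mean ± SD, n = 4 litters). It made up 94.1% to 94.8% of the summed TPM of the 9 genes in WT and 92.0% to 94.1% in *Nlrx1*-/- libraries. *Cxcl9* followed at 79.8 ± 19.6 TPM in WT and 163 ± 66.7 TPM in *Nlrx1*-/- cells (n = 4), below every *Cxcl10* value and above every value of the next gene. In WT the rest of the order was *Cxcl14* (30.1 TPM), *Cxcl1* (27.1 TPM), *Cxcl16* (12.6 TPM), *Cxcl11* (3.94 TPM), *Cxcl5* (3.18 TPM), *Cxcl12* (2.26 TPM) and *Cxcl2* (1.77 TPM), where among neighbours only *Cxcl16* and *Cxcl11* did not overlap. In *Nlrx1*-/- cells it was *Cxcl1* (51.8 TPM), *Cxcl14* (23.7 TPM), *Cxcl11* (8.88 TPM), *Cxcl5* (7.70 TPM), *Cxcl16* (7.70 TPM), *Cxcl2* (4.35 TPM) and *Cxcl12* (2.77 TPM), where only *Cxcl14* and *Cxcl11* did not overlap.

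**Figure D1:**
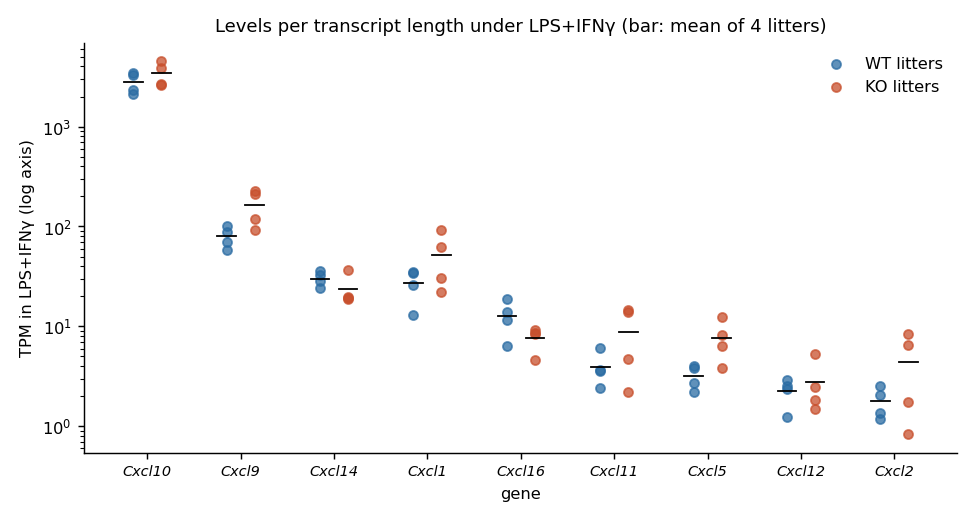
TPM under LPS+IFNγ on a log axis for each CXCL chemokine, ordered by the WT mean; points are litters (4 WT, 4 *Nlrx1*-/-, written KO) and bars are means. *Cxcl10* stands near 2802 TPM in WT and 3421 TPM in KO cells, above all other members, while most genes to the right of *Cxcl9* overlap with their neighbours.

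All 9 genes were higher after LPS+IFNγ in WT astrocytes, where 23.7% of all genes tested rose (edgeR, adjusted p below 0.05), and 8 of 9 were higher in *Nlrx1*-/- astrocytes, where 25.3% rose. At a threshold of 0.01, 7 and 8 genes passed. The exception in the knockout was *Cxcl12*. On the deposited log2 CPM scale, every LPS+IFNγ library lay above every vehicle library for 8 of 9 genes in WT (20.2% of all genes) and for the same 8 in *Nlrx1*-/- cells (17.6% of all genes). The median response of the members was 4.55 in WT and 6.19 in *Nlrx1*-/- on the log2 scale, beside -0.02 and -0.03 over all genes. In each genotype the median is the fitted value of *Cxcl2*, which depends on the prior count, and its ratio of scaled reads was 17.9 in WT and 58.1 in *Nlrx1*-/- cells.

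**Figure D2:**
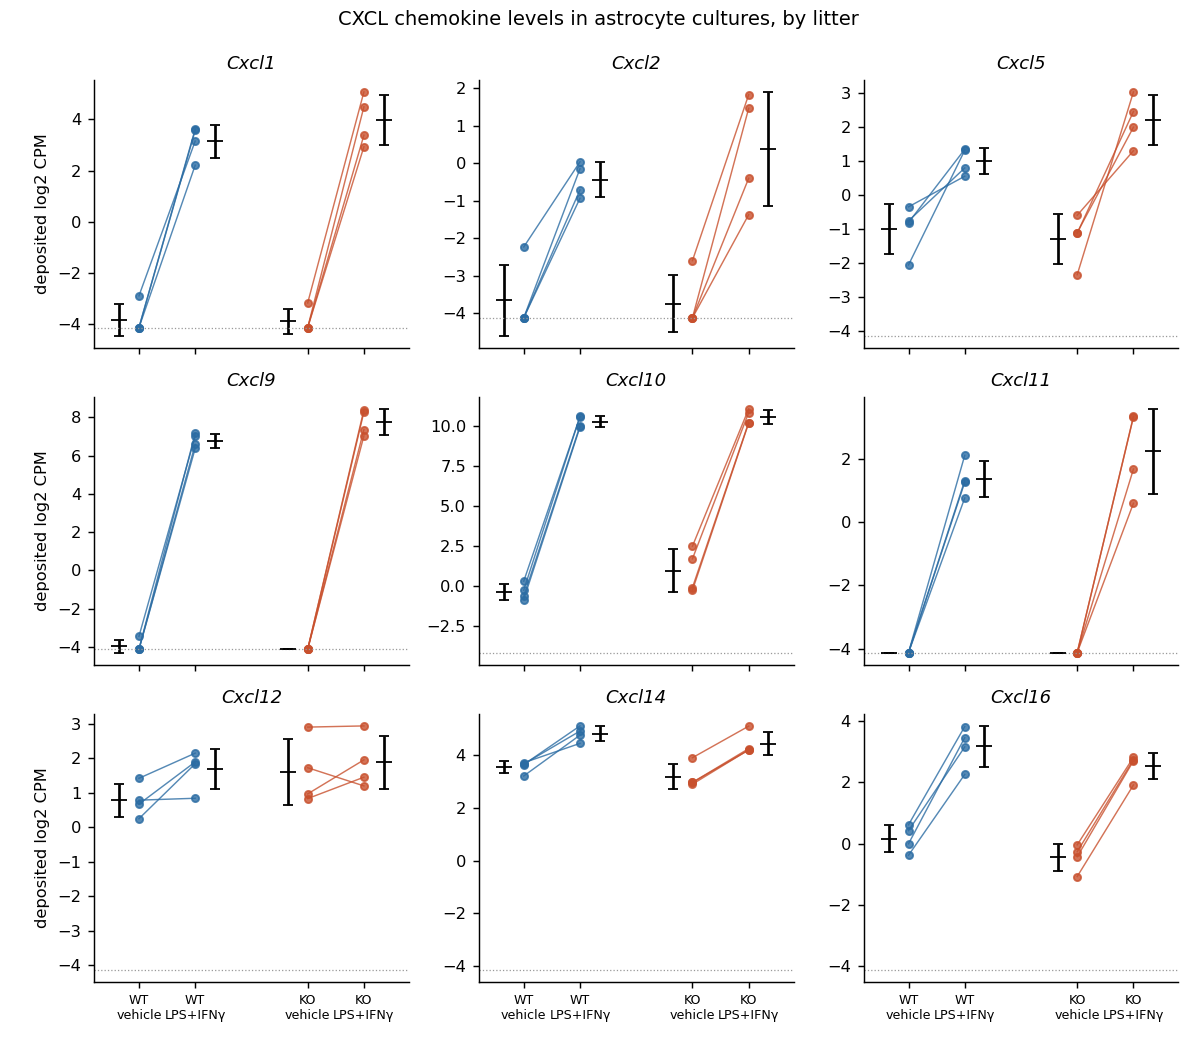
Deposited log2 CPM of each CXCL chemokine in the 16 libraries, with lines joining the vehicle and LPS+IFNγ wells of a litter, black bars for mean ± SD over 4 litters, and a dotted line at the value of 0 reads (-4.13). Lines climb in every litter for 8 genes, and for *Cxcl12* in all 4 WT but only 3 of 4 KO litters.

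The CXCR3 ligands *Cxcl10* and *Cxcl9* went from few or no reads to the highest levels in the family. *Cxcl10* had 19, 35, 24 and 30 reads in WT vehicle litters 1 to 4 and 28753, 51026, 28187 and 57895 reads after LPS+IFNγ. In *Nlrx1*-/- litters 1 to 4 it had 29, 209, 33 and 140 reads in vehicle and 39869, 60194, 43443 and 62509 reads after LPS+IFNγ. Every stimulated library was far above every vehicle library, and in the knockout litters 2 and 4 had the most reads in vehicle. The response was 10.71 on the log2 scale in WT (SE 0.31, edgeR adjusted p = 1e-09) and 9.37 in *Nlrx1*-/- (SE 0.28, edgeR adjusted p = 1.22e-09).

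*Cxcl9*, which is induced mainly by IFNγ, had 1 read over the 4 WT vehicle libraries and 0 over the 4 *Nlrx1*-/- vehicle libraries. After LPS+IFNγ it had 2704, 4317, 2340 and 5327 reads in WT litters 1 to 4 and 4501, 9519, 5968 and 10687 reads in the same order in the knockout. The ratio of summed reads, scaled to the library totals, was 14941 in WT, with a 95% exact counting interval of 2681 to 590175, and *Cxcl9* was at least 10553-fold higher after treatment in *Nlrx1*-/-, against a floor of 3 counts over the group. Counting intervals and floors here cover counting error only. The edgeR adjusted p was 2.56e-09 in WT and 1.24e-09 in *Nlrx1*-/-.

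*Cxcl11* was at 0 reads in all 8 vehicle libraries. After LPS+IFNγ it had 66, 143, 47 and 90 reads in WT litters and 109, 283, 53 and 348 reads in those of the knockout, so that it was at least 117-fold higher in WT and at least 273-fold higher in *Nlrx1*-/- (edgeR adjusted p = 0.000456 and 0.000233). The exons of *Cxcl11* share 1582 of 3794 bases (41.7%) with the opposite-strand gene *Gm2673*, and since strand was not kept, reads of overlapping genes on opposite strands cannot be told apart.

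The neutrophil-attracting CXCR2 ligands also rose in each genotype. *Cxcl1* had 3 reads over the WT vehicle libraries and 2 over the *Nlrx1*-/- ones, and after LPS+IFNγ 328, 409, 132 and 324 reads in WT litters and 353, 934, 273 and 754 in those of the knockout. The ratio of reads, scaled to the library totals, was 405 in WT (95% exact counting interval 138 to 1964, edgeR adjusted p = 1.63e-07) and 1194 in *Nlrx1*-/- (330 to 9866, edgeR adjusted p = 5.16e-08), and these intervals overlap. Stimulated *Cxcl1* was lowest in litter 3 of each genotype and highest in *Nlrx1*-/- litters 2 and 4.

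*Cxcl2*, the close relative of *Cxcl1* with the same κB letters, stayed sparse. It had 5 reads over the WT vehicle libraries and 4 over the *Nlrx1*-/- ones, then 27, 28, 16 and 17 reads in stimulated WT litters and 24, 98, 12 and 91 in stimulated *Nlrx1*-/- litters. The ratio of reads, scaled to the library totals, was 17.9 in WT (95% exact counting interval 7.39 to 56.5, edgeR adjusted p = 0.00265) and 58.1 in *Nlrx1*-/- (22.4 to 215, edgeR adjusted p = 0.000474). Under LPS+IFNγ there were 9.58 to 22.0 TPM of *Cxcl1* per TPM of *Cxcl2* in WT libraries and 9.60 to 26.6 in *Nlrx1*-/- libraries.

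*Cxcl5* was read in every vehicle library, at 6, 15, 35 and 20 reads in WT litters and 22, 15, 15 and 6 in those of the knockout. After LPS+IFNγ it had 67, 80, 41 and 60 reads in WT and 83, 152, 145 and 270 reads in those of the knockout. The response was 2.02 on the log2 scale in WT (SE 0.56, edgeR adjusted p = 0.0139) and 3.58 in *Nlrx1*-/- (SE 0.59, edgeR adjusted p = 0.000544). By litter, on the log2 CPM scale, the WT response ran from 0.90 to 3.36 and the *Nlrx1*-/- response from 1.89 to 5.36, so the genotypes overlapped. The WT call was lost without WT litter 1 (adjusted p = 0.0588) or litter 2 (adjusted p = 0.0544) in edgeR. Of the exonic bases of *Cxcl5*, 27.6% are shared with the opposite-strand gene *Gm72413*.

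Among the members read in resting cells, *Cxcl14*, a chemokine of skin and brain with no settled signalling receptor, rose in all 8 litters. In WT litters 1 to 4 it was at 3.72, 3.65, 3.21 and 3.67 log2 CPM in vehicle and 4.45, 5.11, 4.76 and 4.92 log2 CPM after LPS+IFNγ. In *Nlrx1*-/- litters it was at 2.97, 2.97, 3.91 and 2.90 log2 CPM in vehicle and 4.20, 4.25, 5.10 and 4.21 log2 CPM after LPS+IFNγ. *Nlrx1*-/- litter 3 was the highest knockout litter in each treatment, and WT litter 3 the lowest WT litter in vehicle. The response was 1.25 on the log2 scale in WT (SE 0.12, edgeR adjusted p = 1.77e-05) and 1.24 in *Nlrx1*-/- (SE 0.12, edgeR adjusted p = 1.6e-05). The 4 knockout litters responded by 1.20 to 1.30 log2 CPM, and the WT litters by 0.73 to 1.55.

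*Cxcl16* rose by 3.08 on the log2 scale in WT (SE 0.18, edgeR adjusted p = 3.75e-07) and by 3.09 in *Nlrx1*-/- cells (SE 0.19, edgeR adjusted p = 4.06e-07). It had 21, 26, 59 and 53 reads in WT vehicle litters and 147, 349, 249 and 530 reads after LPS+IFNγ. In *Nlrx1*-/- litters it had 27, 17, 32 and 32 reads in vehicle and 228, 105, 248 and 235 reads after LPS+IFNγ. The responses by litter ran from 2.65 to 3.47 log2 CPM in WT and from 2.86 to 3.14 in *Nlrx1*-/- cells. *Cxcl16* shares 41.6% of its 5123 exonic bases with *Zmynd15* and 43.2% with *Med11*, genes on the opposite strand. *Zmynd15* had 1 to 17 reads in each vehicle library and 22 to 66 after LPS+IFNγ, fewer than *Cxcl16* in every library. The reads of *Med11*, which has the larger overlap, were not examined, and its part in the *Cxcl16* counts was not tested.

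*Cxcl12* was the one member whose response was not called in the knockout. It had 0.78, 1.42, 0.25 and 0.67 log2 CPM in WT vehicle litters and 0.84, 2.14, 1.84 and 1.89 log2 CPM after LPS+IFNγ. In *Nlrx1*-/- litters the levels were 0.83, 0.96, 2.90 and 1.72 log2 CPM in vehicle and 1.45, 1.95, 2.93 and 1.20 log2 CPM after LPS+IFNγ. The response was 0.92 on the log2 scale in WT (SE 0.31, edgeR adjusted p = 0.0351, higher in 4 of 4 litters) and 0.26 in *Nlrx1*-/- (SE 0.30, edgeR adjusted p = 0.506, higher in 3 of 4 litters). The difference between these responses was -0.66 (SE 0.43, edgeR adjusted p = 0.494), so the genotypes were not shown to differ. The WT call was lost without WT litter 2, 3 or 4 (edgeR adjusted p = 0.0754, 0.161 and 0.120). Of the knockout litters, litter 3 had the highest *Cxcl12* level in each treatment. In that litter the fibroblast marker *Col1a2* had 885 reads in vehicle and 703 after LPS+IFNγ. Knockout litters 1, 2 and 4 had 357, 266 and 400 *Col1a2* reads in vehicle and 168, 120 and 198 after LPS+IFNγ. The part of fibroblast and mural cells in the *Cxcl12* levels was not tested.

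The deposited transcript counts split 3 genes between isoforms, and this split is an estimate by Salmon. Of *Cxcl12* reads, 1 RefSeq transcript held 59.0% in vehicle and 42.9% in stimulated WT libraries, and another held 21.8% and 47.7%. In *Nlrx1*-/- cells these shares were 46.9% and 39.5% for the former and 44.9% and 50.5% for the latter. Of *Cxcl16* reads, the coding transcript held 78.6% and 69.5% in vehicle and stimulated WT libraries and 54.5% and 52.3% in those of the knockout, the rest being assigned to transcripts annotated as noncoding. The coding transcript was at 0 in stimulated WT litter 1 and in *Nlrx1*-/- vehicle litters 1 and 2, so these pooled shares do not describe each litter. Of *Cxcl14* reads in stimulated *Nlrx1*-/- libraries, 54.1% went to the reviewed transcript and 45.3% to a predicted one, and nearly all of the latter (1258 reads) lay in litter 3, where the reviewed transcript had 0. These shares were pooled over 4 libraries of a group and were not tested.

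The responses of the genotypes were compared through the interaction of genotype and treatment. None of the 9 members passed (0% of all genes passed, edgeR adjusted p below 0.05), and 1 member, *Cxcl10*, had an unadjusted p below 0.05. DESeq2 and limma-voom also called 0 members, with 2 below that unadjusted level in each. The response of *Cxcl10* was lower in *Nlrx1*-/- by 1.34 on the log2 scale (SE 0.42, edgeR adjusted p = 0.223), with litter responses of 10.61, 10.26, 10.76 and 10.84 log2 CPM in WT and 10.43, 8.57, 10.30 and 9.12 in *Nlrx1*-/-. *Nlrx1*-/- litters 2 and 4 were below all WT litters and litters 1 and 3 were not. The difference of the responses was 1.56 for *Cxcl5* (SE 0.80, edgeR adjusted p = 0.381), -0.00 for *Cxcl14* (SE 0.17, edgeR adjusted p = 0.998) and 0.01 for *Cxcl16* (SE 0.20, edgeR adjusted p = 0.992). The litter responses of the genotypes overlapped for all 9 members, and were without overlap for 8.31% of all genes.

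**Figure D3:**
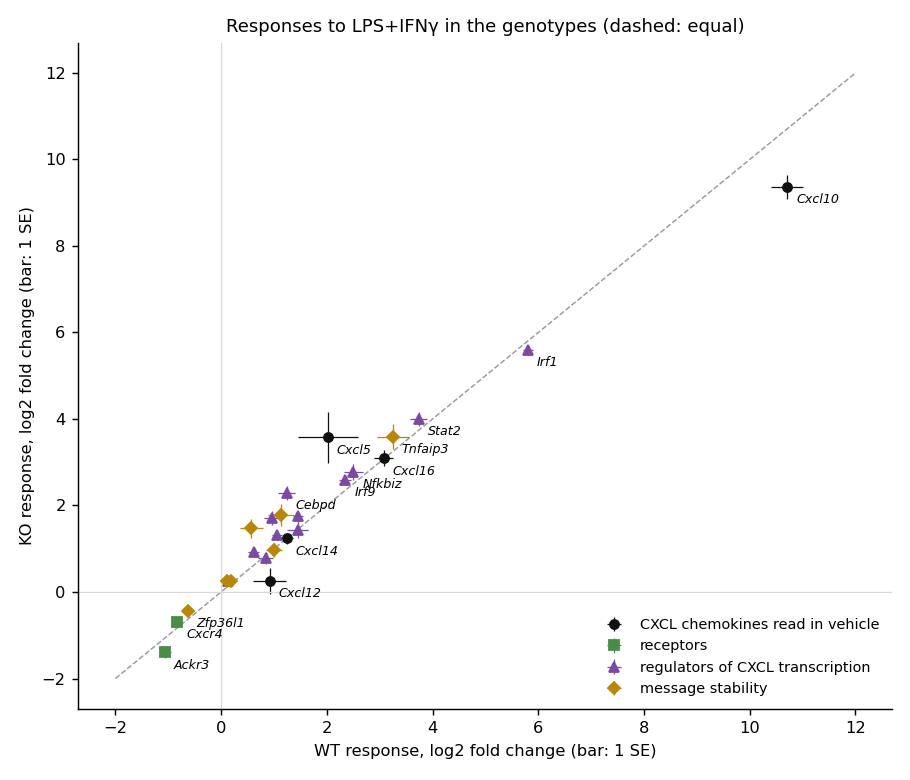
Response to LPS+IFNγ in WT (x axis) and *Nlrx1*-/- (KO, y axis) astrocytes as log2 fold change with 1 SE, for the 5 CXCL chemokines read in vehicle and for chemokine receptors, regulators of CXCL transcription and message stability genes; the dashed line marks equal responses. *Cxcl14* and *Cxcl16* lie on the line, and *Cxcl10* lies below it, at 10.71 in WT and 9.37 in KO cells. Not all genes of these lists are drawn, and *Ackr1*, at 0 reads in the stimulated KO libraries, is among those left out.

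In vehicle, no member differed between the genotypes (0% of all genes passed in edgeR), and 1 member had an unadjusted p below 0.05. That gene was again *Cxcl10*, whose level is part of its interaction above, at -0.61, 0.33, -0.82 and -0.24 log2 CPM in WT litters 1 to 4 and -0.24, 2.51, -0.07 and 1.72 in those of the knockout. Litters 2 and 4 of the knockout were above every WT litter, and litters 1 and 3 were within the WT range. The difference was 1.80 on the log2 scale (SE 0.56, edgeR adjusted p = 0.132), while DESeq2 called it (adjusted p = 0.0299) and limma-voom called 0 members. Over all 16066 genes DESeq2 called 455 higher and 280 lower in the knockout in vehicle.

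The 209 *Cxcl10* reads of *Nlrx1*-/- vehicle litter 2 came with 0 reads of *Cxcl9* and *Cxcl11*, as did the 140 reads of litter 4. Some interferon-stimulated genes, chosen after their values were seen, were also highest in these libraries: *Rsad2*, which encodes viperin, had 3.13 and 2.54 log2 CPM in knockout vehicle litters 2 and 4 and 0.49 to 1.16 in the other 6 vehicle libraries, and *Isg15* had 2.34 and 1.52 against -0.01 to 0.86. *Ifit3*, another such gene, went the other way, with 2.35 and 3.03 log2 CPM in litters 2 and 4 and 3.24 to 4.36 in the other 6 libraries.

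The difference in vehicle, *Nlrx1*-/- minus WT on the log2 scale, was 1.03 for *Cxcl12* (SE 0.49, edgeR adjusted p = 0.259), -0.68 for *Cxcl16* (SE 0.36, adjusted p = 0.297), -0.33 for *Cxcl14* (SE 0.25, adjusted p = 0.479) and -0.37 for *Cxcl5* (SE 0.48, adjusted p = 0.713), none past the threshold in edgeR. *Nlrx1*-/- litter 3 ran against the other knockout litters in *Cxcl14*, and without it *Cxcl14* was called lower in the knockout in vehicle (-0.63, edgeR adjusted p = 0.0280) and *Cxcl10* was called higher (adjusted p = 0.0302). Without that litter, 590 of 16298 genes were called higher and 720 lower in vehicle. The vehicle levels of the genotypes overlapped for all 9 members, and were without overlap for 9.45% of all genes.

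Under LPS+IFNγ, 1 of the 9 members, *Cxcl9*, was higher in *Nlrx1*-/- than in WT astrocytes, where 2.65% of all genes were called higher by edgeR, and none was called lower (2.38% of all genes). *Cxcl9* was at 6.59, 7.02, 6.38 and 7.17 log2 CPM in WT litters 1 to 4 and 7.04, 8.40, 7.37 and 8.29 in those of the knockout. Knockout litters 2, 3 and 4 were above every WT litter, and litter 1 was below the highest WT litter. The difference was 1.04 on the log2 scale, 2.06-fold (SE 0.28, edgeR adjusted p = 0.0489). The call did not survive leaving out WT litter 1, 2, 3 or 4 (edgeR adjusted p = 0.0762, 0.146, 0.152 and 0.150) or knockout litter 2 or 4 (0.121 and 0.158), nor a fit of the 8 stimulated libraries alone (0.0869). The median difference of the members was 0.96 on the log2 scale, beside -0.01 over all genes.

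*Cxcl5* was at 1.31, 1.34, 0.55 and 0.79 log2 CPM in stimulated WT litters and 1.30, 2.45, 1.99 and 3.03 in stimulated *Nlrx1*-/- litters, again with knockout litter 1 inside the WT range. Its difference was 1.29 on the log2 scale (SE 0.43, edgeR adjusted p = 0.0748), and DESeq2 called it (adjusted p = 0.0251). Over all 16066 genes DESeq2 called 1229 higher and 1209 lower in the stimulated knockout. In edgeR the difference was 0.96 for *Cxcl1* (SE 0.45, adjusted p = 0.171), 1.33 for *Cxcl2* (SE 0.86, adjusted p = 0.328), 1.19 for *Cxcl11* (SE 0.59, adjusted p = 0.213) and 0.30 for *Cxcl10* (SE 0.38, adjusted p = 0.642). It was 0.28 for *Cxcl12* (SE 0.48, adjusted p = 0.737), -0.35 for *Cxcl14* (SE 0.25, adjusted p = 0.376) and -0.71 for *Cxcl16* (SE 0.32, adjusted p = 0.151), also in edgeR. Without knockout litter 3, *Cxcl11* (1.51, adjusted p = 0.0460) and *Cxcl14* (-0.64, adjusted p = 0.0118) were called as well, and without WT litter 1 *Cxcl16* was (-0.94, adjusted p = 0.0479). Over all genes, 1499 of 16298 were called higher and 1834 lower without knockout litter 3. Without WT litter 1, 630 of 16323 were called higher and 767 lower.

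**Figure D4:**
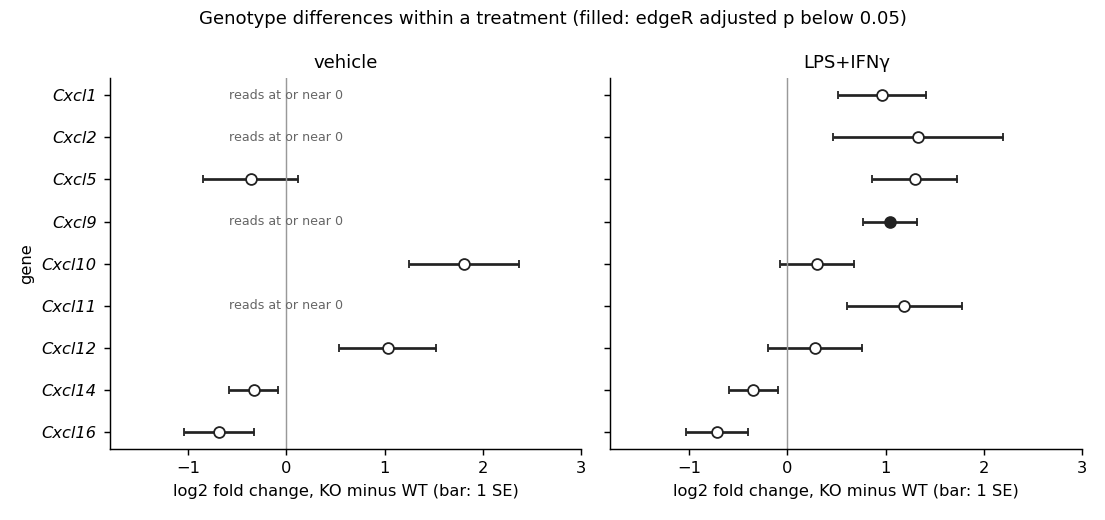
Difference of *Nlrx1*-/- (KO) minus WT in vehicle (left) and under LPS+IFNγ (right) as log2 fold change with 1 SE for each CXCL chemokine; filled points pass an edgeR adjusted p of 0.05, and genes at or near 0 reads in vehicle have no point there. The single filled point is *Cxcl9* under LPS+IFNγ at 1.04, and *Cxcl14* and *Cxcl16* lie below 0 on both sides.

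The differences under LPS+IFNγ were carried by different knockout litters to different degrees. *Nlrx1*-/- litters 2 and 4 each exceeded every WT litter in 6 members (*Cxcl1*, *Cxcl2*, *Cxcl5*, *Cxcl9*, *Cxcl10* and *Cxcl11*), while 33.0% and 32.8% of all genes in these libraries did so. Litter 3 exceeded every WT litter in *Cxcl5*, *Cxcl9* and *Cxcl12* (19% of all genes), and litter 1 in no member (26.5% of all genes). The stimulated levels of the genotypes overlapped for all 9 members, and were without overlap for 13.3% of all genes. Beside this, the summed astrocyte markers under LPS+IFNγ ranged from 5900 to 8427 CPM in WT and from 4892 to 6762 CPM in *Nlrx1*-/- libraries, with *Aldoc* called lower by edgeR, and the microglia and macrophage markers ranged from 1.65 to 4.12 and from 1.85 to 3.65 CPM. Of 7 oligodendrocyte lineage markers, *Pdgfra* was lower in the stimulated knockout by 0.83 on the log2 scale (edgeR adjusted p = 0.0396; list median -0.83), and of 4 ependymal markers *Dynlrb2* was lower by 0.95 (edgeR adjusted p = 0.0490; list median -1.17). In these bulk cultures fewer cells of a type and less RNA per cell cannot be told apart, and the part of such differences in the results was not tested.

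Within the interferon-induced group, the proportion of *Cxcl9* to *Cxcl10* did not overlap between the stimulated genotypes, although the level of each gene did. There were 30.0, 27.2, 27.2 and 29.5 TPM of *Cxcl9* per 1000 TPM of *Cxcl10* in WT litters 1 to 4 (28.5 ± 1.52, mean ± SD) and 35.9, 50.3, 44.1 and 54.4 in the knockout litters (46.2 ± 8.07, n = 4 each). Every knockout litter was above every WT litter. This proportion was chosen after the values were seen and was therefore not tested. How many proportions between other genes would be without overlap was not counted. Among single genes, 13.3% were without overlap between the stimulated genotypes. The proportion of *Cxcl11* to *Cxcl10* overlapped, at 1.05 to 1.88 TPM per 1000 TPM in WT and 0.820 to 3.72 in *Nlrx1*-/- libraries.

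**Figure D5:**
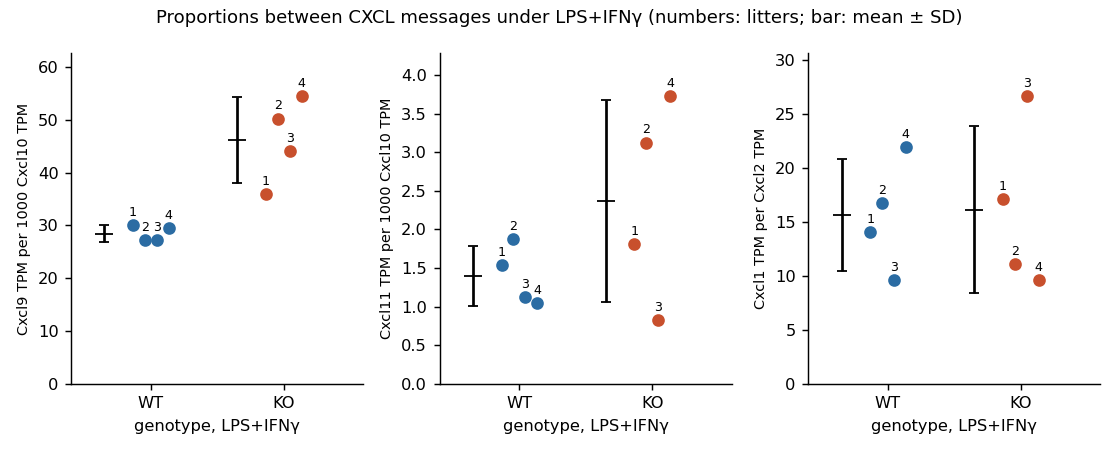
Proportions between CXCL messages in the LPS+IFNγ libraries: *Cxcl9* and *Cxcl11* TPM per 1000 *Cxcl10* TPM and *Cxcl1* TPM per *Cxcl2* TPM; points are litters with their numbers and bars are mean ± SD of 4 litters. In the left panel WT litters lie between 27.2 and 30.0 and KO litters between 35.9 and 54.4, and in the other panels the genotypes overlap.

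The receptors of these ligands were read only in part. *Cxcr3* and *Cxcr1* had 0 reads in all 16 libraries, and *Cxcr2*, *Cxcr5* and *Cxcr6* had at most 3, 9 and 14 reads in a library. Of 8 receptors, 3 could be tested, of which 2 fell in WT (20.2% of all genes fell) and 3 in *Nlrx1*-/- (24.2% fell). *Cxcr4*, a receptor of CXCL12, fell by 0.83 on the log2 scale in WT (SE 0.08, edgeR adjusted p = 1.27e-05) and by 0.69 in *Nlrx1*-/- (SE 0.08, edgeR adjusted p = 4.16e-05). *Ackr3*, the other CXCL12 receptor, fell by 1.06 in WT (SE 0.12, edgeR adjusted p = 5.56e-05) and by 1.40 in *Nlrx1*-/- (SE 0.12, edgeR adjusted p = 7.21e-06). *Ackr1*, the atypical receptor that binds several inflammatory CXC chemokines, had 9, 18, 8 and 26 reads in stimulated WT litters and 0 in all 4 stimulated *Nlrx1*-/- litters, and edgeR called it lower in the knockout (adjusted p = 0.0489). In vehicle *Ackr1* ran from 0 to 46 reads in WT and from 0 to 28 in *Nlrx1*-/- litters.

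Of 13 regulators of CXCL transcription, 12 rose in WT and 13 in *Nlrx1*-/- astrocytes, where 23.7% and 25.3% of all genes rose, with medians of 1.45 and 1.76 on the log2 scale, and edgeR called 0 of them in the interaction or between the genotypes. *Stat2* rose by 3.74 in WT (SE 0.16, edgeR adjusted p = 2.45e-08) and by 4.00 in *Nlrx1*-/- (SE 0.16, edgeR adjusted p = 1.48e-08). *Rela*, the NF-κB subunit p65, was the member of the list not called in WT, at 0.13 (edgeR adjusted p = 0.175), and rose by 0.25 in *Nlrx1*-/- (edgeR adjusted p = 0.0172). The difference of these responses was 0.12 (edgeR adjusted p = 0.633).

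Genes that act on the stability of chemokine messages moved in both directions. Of 7, edgeR called 4 higher and 1 lower in WT and 6 higher and 1 lower in *Nlrx1*-/- cells, beside 23.7% higher and 20.2% lower, and 25.3% higher and 24.2% lower, over all genes. *Zfp36l1*, an RNA-binding protein that promotes decay of AU-rich messages, fell by 0.64 on the log2 scale in WT and by 0.43 in *Nlrx1*-/-, and its relative *Zfp36l2* was at 0.10 (edgeR adjusted p = 0.296) and 0.25 (edgeR adjusted p = 0.0193). Among 5 proteases that process chemokines, 3 could be tested and 1, *Mmp2*, which cleaves CXCL12, fell in each genotype, by 1.27 and 0.55. Over all genes, 20.2% fell in WT and 24.2% in *Nlrx1*-/-. *Mmp2* had 79, 169, 93 and 202 reads in stimulated WT litters and 275, 420, 228 and 498 in stimulated *Nlrx1*-/- litters, with no overlap, and was higher in the knockout by 1.38 on the log2 scale (SE 0.34, edgeR adjusted p = 0.0413). Under LPS+IFNγ, 2.65% of all genes were called higher in the knockout. Stimulated levels were without overlap for 13.3% of all genes on the log2 CPM scale. In the 8 stimulated libraries alone, no gene was called between the genotypes. *Adam10*, the protease that sheds CXCL16, was at 0.13 in WT (edgeR adjusted p = 0.0520) and 0.06 in *Nlrx1*-/- (edgeR adjusted p = 0.353).

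Over the 16 libraries the log2 CPM of *Cxcl1*, *Cxcl9*, *Cxcl10* and *Cxcl11* correlated with each other at r of 0.97 to 0.99, and *Cxcl12* with the other members at 0.22 to 0.57. The libraries share the treatment, so that any pair of strongly induced genes has a high r. Among 12571 genes outside the family, the 2 with the highest r were *Tlr3* (0.996) and *Irf2* (0.993) for *Cxcl1*, *Stk38l* (0.978) and *Xbp1* (0.974) for *Cxcl2*, and *Rgmb* and *Gclm* (0.962 each) for *Cxcl5*. For *Cxcl9* they were *Serpina3f* and *Parp9* (0.998 each), for *Cxcl10* *Ccl5* (0.998) and *H2-K1* (0.997), and for *Cxcl11* *Shisa5* and *Nampt* (0.996 each). For *Cxcl12* they were *Zfp456* (0.848) and *Acy3* (0.759), for *Cxcl14* *Fbxo7* (0.968) and *Gpx1* (0.961), and for *Cxcl16* *Jam3* (0.986) and *Tmbim6* (0.985).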

How the data were processed

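RNA from 16 astrocyte cultures (4 litters of each genotype, vehicle and LPS+IFNγ) was measured. The authors quantified transcripts with Salmon 1.7.0 on GRCm39 RefSeq transcripts and deposited, for each library, expected counts and TPM per transcript, and for the series a table of log2 CPM per gene, with limma 3.58.1 named in the submitters' processing notes. Salmon shares reads between transcripts by estimation, and reads were not strand-specific. Here, expected counts were summed by gene symbol and rounded, and 96.7% to 97.3% of the reads of a library could be paired with a symbol. This was done for 106440 of 129698 transcripts, and the other transcripts were not used. TPM was summed in the same way and used to compare genes, and the deposited log2 CPM was used for levels by litter (0 reads read as -4.13).

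Tests were edgeR 4.0.16 quasi-likelihood tests in R 4.3.3 on 16066 genes (TMM, transcript length offsets, minimum count 10), with Benjamini-Hochberg adjustment over all genes tested at 0.05. Responses and the interaction had litter nested in genotype, and genotypes within a treatment were contrasted in a model with 1 term per condition. That model counts the wells of a litter as independent. The wells of a litter come from the same mice, and their deviations from the group means correlated at 0.07 to 0.35 (median 0.22). Between different litters of a genotype, across the treatments, the correlations were -0.35 to 0.15 (median -0.05), so the ranges overlap. No replicate pair differed by less than 6.74 times counting noise. Gene symbols gave the members; all members are described in every comparison. From the lists of receptors, regulators, message stability genes, proteases and other CXC genes, those called in a comparison of genotypes and the 2 with the highest mean log2 CPM are named, and for each member the 2 genes of highest r. Other genes named were chosen after their values were seen. Of the named genes, 1 is not reported here. Members and lists were chosen with earlier results of these data known. Alternatives were DESeq2 1.42.0, limma-voom and limma 3.58.1 on the deposited log2 CPM, RLE normalization, no length offsets, no count filter, a threshold of 0.01, other terms for the litters, the 8 libraries of a treatment alone, and leaving out each litter. The tests were tested on simulated data with 200 genes changed by 1 on the log2 scale. There edgeR called 73% of them in the interaction and 73% between the genotypes under LPS+IFNγ. Of its calls, 3.95% and 2.67% were genes left unchanged. For the genotypes, the simulated wells of a litter were independent, so this does not cover errors from their dependence. Apart from the median response, no response is given from the fits where vehicle held at most 5 reads per library. Instead, ratios of summed reads with exact intervals, or bounds from 3 counts over the group, are given.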

Additional observations from a re-analysis of the deposited data

Results flagged for a closer look

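Of 51 sets of 4 litters (the level of a member in a group, or its response in a genotype), 9 had a litter whose gap to the nearest other litter took up more of the range than Dixon's 95% critical value for 4 samples, which chance gives in about 1 in 20 sets. The share of the range was 1.0 for *Cxcl1* in WT vehicle (litter 4, 3 reads) and in *Nlrx1*-/- vehicle (litter 2, 2 reads), for *Cxcl2* in WT vehicle (litter 1, 5 reads) and in *Nlrx1*-/- vehicle (litter 2, 4 reads), and for *Cxcl9* in WT vehicle (litter 2, 1 read). In these 5 sets the other litters were tied at 0 reads, which gives 1.0 by construction, and the rate of 1 in 20 does not apply to them. *Cxcl14* stood out in litter 3 of each genotype: 0.862 in WT vehicle, where litter 3 was low (3.21 against 3.65 to 3.72 log2 CPM), and 0.933 and 0.941 in vehicle and stimulated *Nlrx1*-/- cells, where litter 3 was high (3.91 against 2.90 to 2.97, and 5.10 against 4.20 to 4.25). *Cxcl16* in *Nlrx1*-/- LPS+IFNγ gave 0.873, with litter 2 low (1.92 against 2.71 to 2.82 log2 CPM).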

How the results depend on the processing

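Over the member results and their alternatives, 580 of 620 values kept their direction and their side of the threshold, 16 lost a call, 7 gained one and 17 changed sign. No alternative called a member in the interaction or lost the rise of *Cxcl1*, *Cxcl2*, *Cxcl9*, *Cxcl10*, *Cxcl11*, *Cxcl14* or *Cxcl16* in either genotype. The number of members that differed between the genotypes in vehicle, 0 as reported, was 1 with DESeq2 and 0 to 2 when each litter was left out, the 2 without *Nlrx1*-/- litter 3. Under LPS+IFNγ, 1 as reported, it was 2 with DESeq2, 0 in the 8 stimulated libraries alone, 0 at an adjusted p below 0.01, and 0 to 3 when each litter was left out, with 3 without *Nlrx1*-/- litter 3 and 0 without WT litter 2, 3 or 4 or *Nlrx1*-/- litter 2 or 4. Without WT litter 1 it was 1, with *Cxcl16* in place of *Cxcl9*.

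Sign changes touched values near 0, and their cause was not tested. The difference of the *Cxcl14* responses was 0.0066 with DESeq2, 0.0013 with limma on the deposited log2 CPM, 0.0067 with RLE normalization, and -0.18 to 0.095 when each litter was left out, with its sign turned without WT litter 2, 3 or 4 or *Nlrx1*-/- litter 1 or 3. That of *Cxcl16* was -0.021 with limma-voom, -0.015 with limma on the deposited log2 CPM, -0.067 without length offsets, -0.031 without the replicate block, and -0.10 to 0.15 when each litter was left out, with its sign turned without WT litter 1 or 3 or *Nlrx1*-/- litter 1 or 2. The *Cxcl12* difference under LPS+IFNγ ran from -0.21 (without *Nlrx1*-/- litter 3) to 0.49 when each litter was left out.

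Without the replicate block of litter, the paired WT response of *Cxcl12* lost its call (0.94, edgeR adjusted p = 0.160), and no other member call changed. The replicate number as a block across genotypes is only a name here (correlations of -0.089 to 0.18), and with it *Cxcl9* under LPS+IFNγ had an edgeR adjusted p of 0.0197. Over all alternatives, the adjusted p of *Cxcl9* ran from 0.0131 to 0.158. The counts behind *Cxcl2*, *Cxcl5*, *Cxcl11* and *Cxcl12* in stimulated libraries were 12 to 348 reads, and how far depth limited their calls was not tested.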

Other observations

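The other CXC chemokines on the list (*Cxcl3*, *Cxcl13*, *Cxcl15*, *Cxcl17*, *Pf4* and *Ppbp*) had too few reads to be tested. *Cxcl3*, *Cxcl17* and *Ppbp* had 0 reads in all 16 libraries, *Cxcl15* had 1 read and *Pf4* 15 reads in all, although *Ppbp*, *Pf4*, *Cxcl3* and *Cxcl15* lie between *Cxcl5* and *Cxcl1* on chromosome 5. *Cxcl13*, which attracts B cells, had 0, 8, 1 and 16 reads in stimulated WT litters and 1, 3, 2 and 1 in stimulated *Nlrx1*-/- litters.

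Around the *Cxcl9* to *Cxcl11* cluster, *Art3*, which spans *Cxcl10* and *Cxcl11* on the opposite strand and shares 133 exonic bases with *Cxcl10*, rose by 3.20 on the log2 scale in WT (edgeR adjusted p = 0.000283) and by 2.34 in *Nlrx1*-/- (edgeR adjusted p = 0.00121). Summed over 4 libraries, *Art3* had 19 reads in WT and 38 in *Nlrx1*-/- vehicle cells, and 164 and 166 after LPS+IFNγ. *Cxcl10* had 165861 and 206015 reads in these stimulated groups. Strand was not kept, and the part of *Cxcl10* reads in the *Art3* counts was not tested. *Nup54*, 50054 bases from *Cxcl11*, rose by 0.44 in each genotype (edgeR adjusted p = 0.00112 and 0.000951). *Sdad1*, 10867 bases from *Cxcl9*, rose by 0.74 in *Nlrx1*-/- (edgeR adjusted p = 0.000161), was at 0.27 in WT (edgeR adjusted p = 0.0512) and was higher in *Nlrx1*-/- under LPS+IFNγ by 0.72 (edgeR adjusted p = 0.0431). The difference between the responses of *Sdad1*, 0.47, did not pass (edgeR adjusted p = 0.223). *Naaa*, 43120 bases from *Cxcl9*, fell by 0.73 in *Nlrx1*-/- (edgeR adjusted p = 0.0169) and was at -0.41 in WT (edgeR adjusted p = 0.123). *Scarb2*, 75824 bases from *Cxcl11*, rose by 0.23 in *Nlrx1*-/- (edgeR adjusted p = 0.0412) and was at 0.05 in WT (edgeR adjusted p = 0.634). In the other cluster *Mthfd2l*, 25122 bases from *Cxcl2*, fell by 0.34 in WT (edgeR adjusted p = 0.00831) and was at -0.21 in *Nlrx1*-/- (edgeR adjusted p = 0.0590).

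Summed markers of other cell types differed between the treatments too. Oligodendrocyte lineage markers (7 genes) summed to 2294 to 3089 CPM in vehicle and 1402 to 2093 CPM after LPS+IFNγ, and edgeR called 5 lower in WT and 6 in *Nlrx1*-/- (20.2% and 24.2% of all genes were called lower). Neuron markers (5 genes) summed to at most 21.6 CPM in vehicle and 56.7 to 87.9 CPM after treatment, a sum held mostly by *Tubb3*, while edgeR called 2 higher and 1 lower in WT and 2 higher and 2 lower in *Nlrx1*-/-, with *Rbfox3* lower in each genotype. Over all genes, 23.7% were called higher and 20.2% lower in WT, and 25.3% higher and 24.2% lower in *Nlrx1*-/-. Sums in vehicle and after treatment were, for fibroblast and mural markers (7 genes), 120 to 324 and 105 to 184 CPM, for ependymal markers (4 genes), 106 to 246 and 64.8 to 160 CPM, and for endothelial markers (5 genes), 1.50 to 10.3 and 0.632 to 2.41 CPM.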
